A study of Mus musculus with 20 samples.

Results

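The mouse genes Cyp2b9, Cyp2b10 and Cyp2b13 encode cytochromes P450 of the Cyp2b subfamily, and all 3 were found by symbol among the 36106 genes of a liver RNA sequencing table (ENSMUSG00000040660, ENSMUSG00000030483 and ENSMUSG00000040583). The livers came from male mice that had been orchiectomized (ORX), that is, had lost the testes, which make most androgens, or had undergone a sham operation (Sham). Each kind of mouse was then kept for 2 weeks in normoxia (Nx) or under intermittent hypoxia (IH), in which the oxygen of the air drops and recovers in cycles, as in sleep apnea. The 4 groups were Sham_Nx with 4 libraries, and Sham_IH, ORX_Nx and ORX_IH with 5 libraries each, 1 mouse per library; Sham_Nx mouse 1 was not analysed here. Strain, age and hormone levels are not given in the sources used here, so the lack of testes is known from the labels alone. All 3 genes passed the filter on low counts that left 16164 genes for testing.

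Cyp2b enzymes sit in the membrane of the endoplasmic reticulum of hepatocytes, take electrons from the reductase Por, and oxidize drugs, steroids and fatty acids. Cyp2b10 is the textbook target of the nuclear receptor CAR (Nr1i3), which also acts on many other drug metabolism genes, and of its relative PXR (Nr1i2). Cyp2b9 and Cyp2b13 are known in mouse liver as female-predominant genes: the pulsatile growth hormone secretion of males, which depends on androgens and acts through Stat5b, keeps them low, and factors such as the repressor Bcl6 and the female-biased repressor Cux2 take part in the sex bias of liver P450 genes.

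The promoters are shown because those of Cyp2b9 and Cyp2b13 are nearly identical and that of Cyp2b10 is not. Each line is the 300-base RefSeq window around the annotated start of the gene, plus strand, build GRCm38.p6, at chr7:26173159-26173458 for Cyp2b9, chr7:26061245-26061544 for Cyp2b13 and chr7:25897408-25897707 for Cyp2b10. Capitals mark, in Cyp2b9 and Cyp2b13, the bases that differ between those genes and, in Cyp2b10, aligned or inserted bases that differ from Cyp2b9.
Cyp2b9: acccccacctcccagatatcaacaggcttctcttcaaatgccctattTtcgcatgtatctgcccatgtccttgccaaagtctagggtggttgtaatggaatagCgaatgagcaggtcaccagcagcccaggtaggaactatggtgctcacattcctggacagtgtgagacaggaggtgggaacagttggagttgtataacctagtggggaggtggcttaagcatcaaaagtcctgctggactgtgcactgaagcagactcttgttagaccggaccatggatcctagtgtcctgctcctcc
Cyp2b13: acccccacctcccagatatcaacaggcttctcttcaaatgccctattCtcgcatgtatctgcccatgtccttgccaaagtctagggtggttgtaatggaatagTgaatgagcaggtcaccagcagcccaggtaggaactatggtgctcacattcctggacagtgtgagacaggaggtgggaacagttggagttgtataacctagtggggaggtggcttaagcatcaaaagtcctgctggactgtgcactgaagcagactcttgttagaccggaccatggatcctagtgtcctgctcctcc
Cyp2b10: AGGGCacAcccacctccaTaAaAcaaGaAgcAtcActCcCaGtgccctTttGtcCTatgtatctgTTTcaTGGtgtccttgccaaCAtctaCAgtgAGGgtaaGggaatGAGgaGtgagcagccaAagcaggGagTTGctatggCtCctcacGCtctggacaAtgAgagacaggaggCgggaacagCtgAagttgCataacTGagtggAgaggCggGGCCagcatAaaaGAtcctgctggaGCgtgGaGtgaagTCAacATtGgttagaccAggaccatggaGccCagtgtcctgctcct
The Cyp2b9 and Cyp2b13 windows were identical at 298 of 300 bases, with the substitutions T48C and C104T from Cyp2b9 to Cyp2b13, counted from 1 at the 5′ end of the window. Over 289 aligned bases, Cyp2b10 matched Cyp2b9 at 223, or 77.2%. On both strands the windows were searched for TTCNNNGAA, the form bound by STAT factors, for AGGTCA, a half-site of nuclear receptors, and for TATAAA. The Cyp2b9 and Cyp2b13 windows each held 1 AGGTCA and the Cyp2b10 window held none, against 16.3% of 32851 RefSeq windows of this length with at least 1. TTCNNNGAA occurred in 8.30% and TATAAA in 13.6% of all windows, and neither in the 3 Cyp2b windows. In the RefSeq gene order of chromosome 7 the genes followed one another as Cyp2b10, Cyp2b28-ps, Cyp2b27-ps, Cyp2b13, Cyp2b26-ps and Cyp2b9, with the non-coding RNA Gm51474 before Cyp2b13 and the pseudogenes Rnf170-ps and Gm29920 after it.

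The transcripts are also alike, which bears on how well the counts tell the genes apart. In GENCODE transcripts of build GRCm38, the longest coding transcripts of Cyp2b9 and Cyp2b13 were identical at 91.9% of 1848 aligned bases, and those of Cyp2b9 and Cyp2b10 at 87.6% of 1860. Of the 31-base words in its transcripts, Cyp2b13 shared 40.8% with some other gene, Cyp2b9 26.1% and Cyp2b10 19.5%. Words shared between Cyp2b9 and Cyp2b13 made up 19.6% of those of either gene. The deposited values are estimated counts, in which reads that fit several transcripts are divided among them by a model. The remaining words, 73.9% of Cyp2b9, 59.2% of Cyp2b13 and 80.5% of Cyp2b10, are found in that gene alone.

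Library totals ran from 29291573 to 69550879 estimated counts, and levels below are in CPM, counts scaled to a common library size with a correction for library composition. A library with 3 counts, the floor used here, has at most 0.108 CPM. The hepatocyte genes Alb, Apoa1, Apob, Ttr, Fgb, Cps1, Serpinc1 and Tat summed to between 74878 and 118750 CPM in every liver. Some libraries carried other signals: 12 skeletal muscle genes summed to at most 8.46 CPM in ORX_Nx and 1.82 CPM in Sham_IH but reached 174 CPM in Sham_Nx and 1041 CPM in ORX_IH, where libraries 1 and 2 were high (2 and 3 in Sham_Nx). Pancreatic acinar genes (11 listed) were high in Sham_IH 5, Sham_Nx 5 and ORX_IH 1. Acute phase and Kupffer cell genes were high in ORX_Nx 4 and 5. Against Sham_Nx, 12 of 16 and 8 of 8 of them were called higher in ORX_Nx, as were 7.88% of all genes. Between ORX_IH and Sham_IH, 1 of 16 and 0 of 8 were called higher, as were 1.31% of all genes.

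Cyp2b9 was low in most sham-operated livers and abundant in orchiectomized ones. Its level in Sham_Nx was 0.831, 0.496, 2.76 and 1.61 CPM in libraries 2 to 5. In Sham_IH it was 1.87, 18.6, 0.413, 2.98 and 37.5 CPM in libraries 1 to 5. In ORX_Nx it was 669, 733, 663, 397 and 317 CPM, and in ORX_IH it was 409, 569, 575, 608 and 547 CPM. Every orchiectomized liver thus lay above every sham-operated one, while Sham_IH 2 and 5 stood above the other sham livers. The group means were 1.42 ± 1.01 CPM in Sham_Nx (SD, n = 4), 12.3 ± 15.9 in Sham_IH, 556 ± 186 in ORX_Nx and 541 ± 77.2 in ORX_IH (SD, n = 5 each).

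Orchiectomy was followed by higher Cyp2b9 under either air. In normoxia the log2 fold change was 8.58 ± 1.05 (SE; edgeR quasi-likelihood, adjusted p = 4.88e-05 over all genes), the third largest rise of all genes. Under intermittent hypoxia it was 5.44 ± 0.81 (edgeR adjusted p = 5.94e-04), number 46 by size of rise. The exact two-sided permutation tests gave p = 0.0159 in normoxia and p = 0.00794 under intermittent hypoxia, the smallest values that 5 against 4 and 5 against 5 livers allow. In all, 7.88% of genes were called higher and 6.46% lower in ORX_Nx than in Sham_Nx, and 5.69% lay higher with no overlap between the groups. These shares depended on the libraries: 1274 genes were higher and 1045 lower, against 147 and 275 without the muscle-high libraries and 560 to 844 and 582 to 959 without any one of Sham_Nx 2 to 5, lowest without Sham_Nx 4. Between ORX_IH and Sham_IH, 1.31% of genes were called higher, 1.57% lower, and 2.77% lay higher with no overlap. The Cyp2b9 changes were 7.98 and 5.54 with the 4 muscle-high libraries left out, and 8.89 and 5.45 with ORX_Nx 4 and 5 left out. In whole liver, a change in the cells that make a transcript and a change in transcript per cell cannot be told apart.

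Intermittent hypoxia by itself gave no Cyp2b9 call. In sham-operated mice the estimate was 3.10 ± 0.85 on the log2 scale (95% interval 1.31 to 4.90; edgeR adjusted p = 0.117), and the groups overlapped. DESeq2 put the same estimate past the threshold (adjusted p = 0.00526), while limma-voom gave 2.21 (adjusted p = 0.472), and the exact permutation test of mean log2 CPM gave p = 0.254. Without Sham_IH 5, which was also the library highest in pancreatic genes, the estimate was 2.08 (edgeR adjusted p = 0.243). Of all genes, 0.303% were called in this comparison. In orchiectomized mice the difference between ORX_IH and ORX_Nx was -0.04 with an interval from -1.43 to 1.36, and 0.0742% of genes were called.

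**Figure D1:**
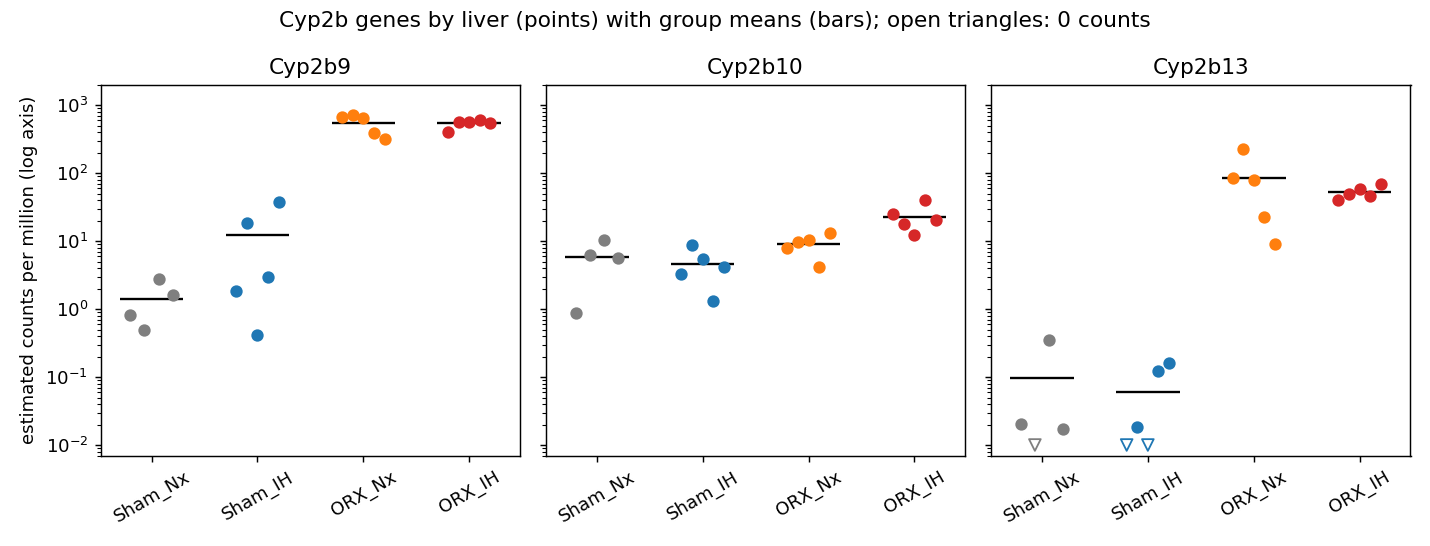
Level in CPM of Cyp2b9, Cyp2b10 and Cyp2b13 on a log axis for each liver (points, in mouse order) in the 4 groups, with the group mean as a bar; open triangles are livers with 0 counts, drawn at the bottom. Cyp2b9 and Cyp2b13 of the orchiectomized livers lie above all sham livers (317 to 733 CPM and 9.08 to 231 CPM), while Cyp2b10 of ORX_Nx overlaps the sham groups and that of ORX_IH does not.

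The 2 sham livers with the most Cyp2b9 also differed in other sex-biased genes. For 10 male-biased liver genes, among them Cyp4a12a, Hsd3b5 and Mup20, the mean centred log2 level was 1.71 in Sham_IH 2 and 1.99 in Sham_IH 5, against 2.35 to 2.82 in the other 7 sham livers. For the female-biased P450 genes, which do not include Cyp2b genes, it was -1.04 and -0.47 in these livers, against -2.32 to -1.30. By this mean, Sham_IH 2 and 5 were the sham livers lowest in the first list and highest in the second. By summed CPM they were again lowest in the first (7654 and 9632 CPM). In the second list Sham_Nx 4 had the highest sum (9024 CPM), against 8321 CPM in Sham_IH 2 and 6590 CPM in Sham_IH 5. The part of these lists in the Cyp2b9 values was not tested.

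Cyp2b13 showed the sharpest contrast. In Sham_Nx the deposited counts were 1, 0, 22 and 1.01 in libraries 2 to 5, and in Sham_IH they were 0, 1.00, 0, 7.16 and 9.01 in libraries 1 to 5. In ORX_Nx its level was 85.0, 231, 79.0, 22.4 and 9.08 CPM. In ORX_IH it was 39.9, 49.4, 58.6, 46.8 and 68.8 CPM. Most sham livers were at or below the floor of 3 counts, none exceeded 0.355 CPM, and the lowest orchiectomized liver, ORX_Nx 5, lay above all of them. Group means were 0.0982 ± 0.172 CPM in Sham_Nx (SD, n = 4), 0.0605 ± 0.0759 in Sham_IH, 85.4 ± 88.2 in ORX_Nx and 52.7 ± 11.2 in ORX_IH (SD, n = 5 each).

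In normoxia the log2 fold change of Cyp2b13 after orchiectomy was 9.62 ± 1.03 (edgeR adjusted p = 1.07e-05), the largest rise of all genes tested. Under intermittent hypoxia it was 9.45 ± 0.99 (edgeR adjusted p = 1.50e-05), number 7 by size of rise. With so few sham counts the size of either change is loosely held: the approximate 95% intervals ran from 7.46 to 11.77 and from 7.38 to 11.52. Without Sham_Nx 4, which held 22 of the 24.0 Sham_Nx counts, the normoxic estimate was 12.50, above the normoxic interval. Near 0 counts these intervals are therefore only a rough guide. The exact permutation tests reached their smallest values, p = 0.0159 and p = 0.00794, but limma-voom did not call the gene in normoxia (10.24, adjusted p = 0.154) or under intermittent hypoxia (10.04, adjusted p = 0.276).

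Intermittent hypoxia was not followed by a called change of Cyp2b13. The estimate was -0.53 in sham mice, with an interval from -4.71 to 3.65 that shows how little these counts can tell. In orchiectomized mice it was -0.70 with an interval from -1.84 to 0.45 (edgeR adjusted p = 0.554), and the groups overlapped. The spread also differed in these values: the highest ORX_Nx liver had 25.5 times the CPM of the lowest, and the highest ORX_IH liver 1.72 times; a test of the spread itself was not run. The ORX_Nx livers low in Cyp2b13, numbers 4 and 5, were also those low in Cyp2b9 and high in acute phase genes, whose mean centred log2 level was 2.17 and 1.62 there and -0.58 to 1.26 in the other orchiectomized livers; its part in the Cyp2b levels was not tested.

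Cyp2b10, the CAR target, was low in 3 groups and highest in ORX_IH. Its level in Sham_Nx was 0.892, 6.22, 10.5 and 5.67 CPM in libraries 2 to 5. In Sham_IH it was 3.34, 8.71, 5.39, 1.33 and 4.14 CPM in libraries 1 to 5. In ORX_Nx it was 7.92, 9.66, 10.3, 4.22 and 13.3 CPM, and in ORX_IH it was 25.1, 17.6, 12.2, 40.0 and 20.2 CPM. The sham groups and ORX_Nx overlapped throughout, ORX_IH lay above both sham groups, and only ORX_IH 3 fell below the highest ORX_Nx liver. Group means were 5.81 ± 3.91 CPM in Sham_Nx (SD, n = 4), 4.58 ± 2.74 in Sham_IH, 9.07 ± 3.34 in ORX_Nx and 23.0 ± 10.6 in ORX_IH (SD, n = 5 each).

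Orchiectomy in normoxia gave a Cyp2b10 estimate of 0.63 ± 0.53 with an interval from -0.48 to 1.74 (edgeR adjusted p = 0.454; exact permutation p = 0.286). Under intermittent hypoxia the gene was higher after orchiectomy by 2.33 ± 0.52 on the log2 scale (edgeR adjusted p = 0.0187; exact permutation p = 0.00794). This call was lost without Sham_IH 1 (2.24, edgeR adjusted p = 0.0566), without the 3 libraries highest in pancreatic genes (2.26, adjusted p = 0.119) and with libraries numbered 1 to 16 only, which leaves out mouse 5 of each group (2.34, adjusted p = 0.0718).

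Intermittent hypoxia gave no edgeR call of Cyp2b10. In orchiectomized mice the estimate was 1.35 ± 0.50 with an interval from 0.31 to 2.39 (edgeR adjusted p = 0.168), and the exact permutation test of this 1 gene, 1 of 12 such tests, gave p = 0.0159. In sham mice it was -0.34 with an interval from -1.45 to 0.77. The interaction, the change under intermittent hypoxia in orchiectomized minus that in sham mice, was 1.69 ± 0.72 for Cyp2b10 (interval 0.18 to 3.21; edgeR adjusted p = 0.759). For Cyp2b9 it was -3.14 ± 1.07 (interval -5.38 to -0.90; edgeR adjusted p = 0.685), and for Cyp2b13 it was -0.17 with an interval from -5.04 to 4.71. The Cyp2b9 and Cyp2b10 estimates have opposite signs, and neither passed the correction. edgeR called 0% of all genes in this contrast, with 1025 genes at an unadjusted p under 0.05, limma-voom called 0, and DESeq2 called 63, none of them a Cyp2b gene described here.

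Against Sham_Nx, the group with neither intervention, ORX_IH had all 3 genes called higher with no overlap: Cyp2b9 by 8.55 ± 1.05, Cyp2b13 by 8.92 ± 1.02 and Cyp2b10 by 1.98 ± 0.55 on the log2 scale (edgeR adjusted p = 6.04e-05, 3.09e-05 and 0.0303). The comparison shares the Sham_Nx livers with the first and the ORX_IH livers with the second. Here 3.53% of all genes were called higher, 5.1% lower, and 5.69% lay higher with no overlap. The Cyp2b10 call rested on few livers: it ended without any one of Sham_Nx 2, 3 or 5 or ORX_IH 1 or 4 (1.63 to 2.01), without the muscle-high libraries (1.58, edgeR adjusted p = 0.335) and without the pancreas-high ones (1.94, adjusted p = 0.140).

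**Figure D2:**
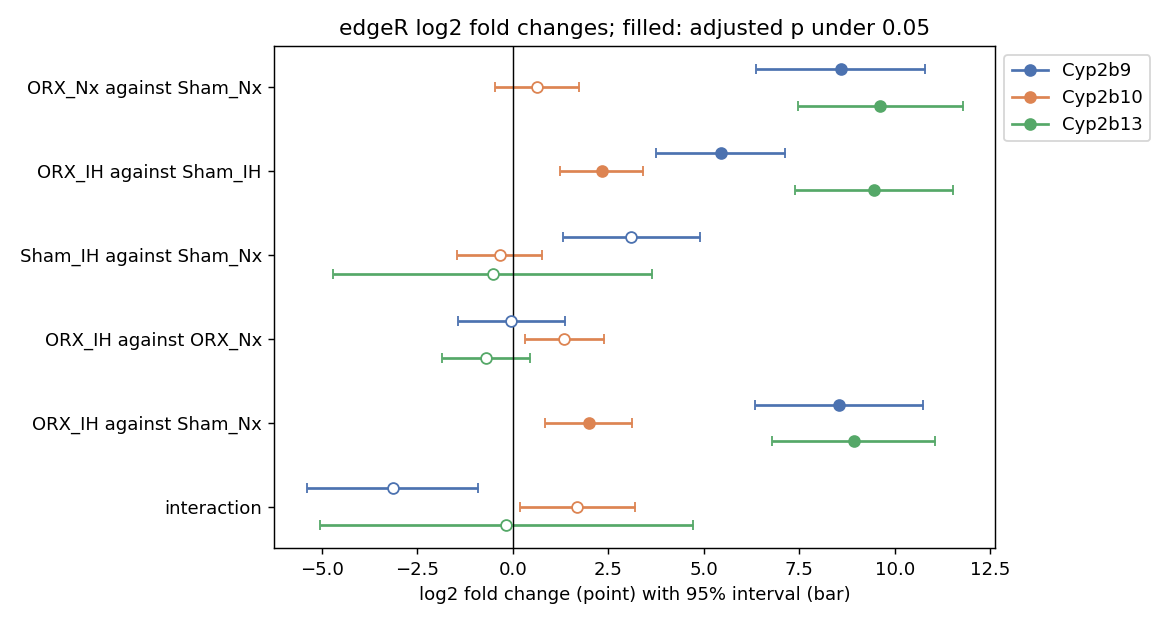
Log2 fold changes (points) with 95% intervals (bars) from edgeR for the 3 genes in 5 comparisons and the interaction; filled points have an adjusted p under 0.05. The Cyp2b9 and Cyp2b13 changes after orchiectomy lie between 5.44 and 9.62. Neither Sham_IH against Sham_Nx nor ORX_IH against ORX_Nx has a filled point.

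Taken per transcript length, the mix of the 3 transcripts turned over with orchiectomy. RPKM values, counts scaled by library size and by gene length so that different genes can be compared, summed over the 3 genes to 4.35 ± 2.87 in Sham_Nx (SD, n = 4), 10.0 ± 10.00 in Sham_IH, 365 ± 49.6 in ORX_IH (SD, n = 5 each), and to 201 to 577 with a mean of 385 in the 5 ORX_Nx livers. Cyp2b10 held 74.7 ± 17.2% of this sum in Sham_Nx, 45.8 ± 32.7% in Sham_IH, 1.66 ± 1.27% in ORX_Nx and 3.78 ± 1.67% in ORX_IH. Cyp2b9 held 24.3%, 53.6%, 87.6% and 87.6% on average, and Cyp2b13 held 1.01%, 0.651%, 10.7% and 8.58%. Cyp2b10 thus led in the normoxic sham livers and Cyp2b9 in each orchiectomized liver. Sham_IH was mixed, with Cyp2b9 at 68.0% in library 2, 67.2% in library 4 and 89.7% in library 5 but 35.8% in library 1 and 7.10% in library 3.

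**Figure D3:**
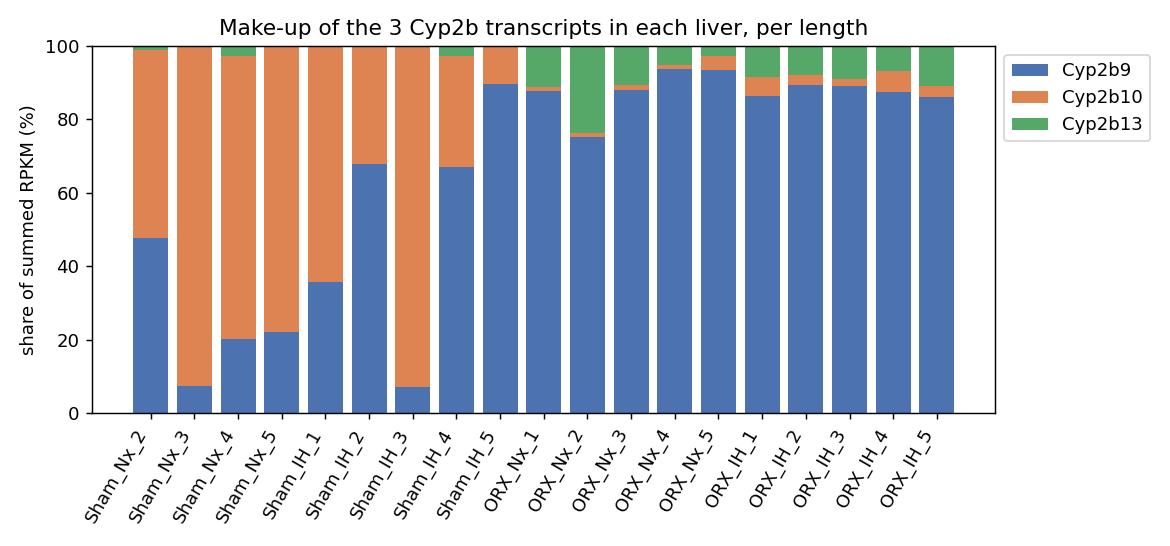
Share of the summed RPKM of the 3 genes held by each gene, in percent, for each of the 19 livers (bars). Cyp2b10 holds 51.2 to 92.6% in Sham_Nx and at most 5.77% in the orchiectomized livers, where Cyp2b9 holds 75.2 to 93.7%.

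Cyp2b9 and Cyp2b13 varied together over the 10 orchiectomized livers taken as a whole, whereas no correlation with Cyp2b10 passed the test. Over the 10 orchiectomized livers, Pearson's r of log2 CPM was 0.92 for Cyp2b9 with Cyp2b13 (permutation p = 9.0e-05, adjusted p = 0.00108 over 12 coefficients) and Spearman's rho was 0.89 (permutation p = 0.00129, adjusted p = 0.00774). Centring each exposure group on its own mean left r at 0.92, and leaving out ORX_Nx 4 and 5, the livers farthest from the median of Cyp2b9, gave 0.75 over 8 livers. Most of the spread lay in ORX_Nx, with log2 CPM of 8.31 to 9.52 for Cyp2b9 and 3.19 to 7.85 for Cyp2b13. In ORX_IH these were 8.68 to 9.25 and 5.32 to 6.10. There ORX_IH 4 had the most Cyp2b9 but ORX_IH 5 the most Cyp2b13. The pooled r thus says little about ORX_IH, and r within a single group was not computed. For Cyp2b10, r was 0.04 with Cyp2b9 (permutation p = 0.913, adjusted p = 0.974) and -0.01 with Cyp2b13 (permutation p = 0.974, adjusted p = 0.974). Over the 9 sham livers, r of Cyp2b9 with Cyp2b13 was 0.54 (exact permutation p = 0.131, adjusted p = 0.393), with Cyp2b13 near 0 counts. Reads divided between Cyp2b9 and Cyp2b13 by the counting model could link their values, and this was not tested. Per length, Cyp2b9 exceeded Cyp2b13 by 3.16 to 34.8 times in ORX_Nx and by 7.94 to 13.0 times in ORX_IH.

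**Figure D4:**
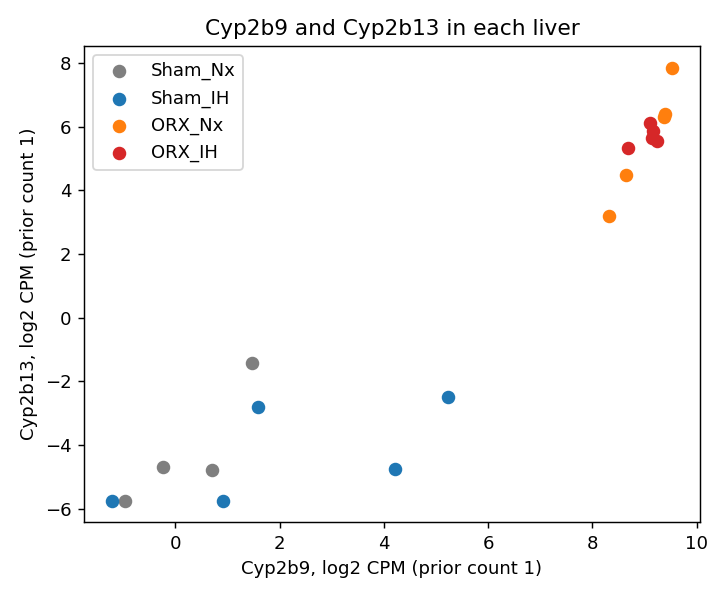
Log2 CPM of Cyp2b13 against that of Cyp2b9, both with a prior count of 1, for each liver (points, coloured by group). The 10 orchiectomized livers form a rising cloud at the top right, and the sham livers lie at the bottom left, where Cyp2b13 rests on 0 to 22 counts.

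Other Cyp2b rows were weak. Cyp2b19 averaged 0.0835 to 0.175 CPM over the 4 groups and was called in no comparison by edgeR, while Cyp2b23 was too low to test, with 0, 2.03, 3.02 and 4.06 counts in Sham_Nx, Sham_IH, ORX_Nx and ORX_IH. The pseudogene Cyp2b27-ps, which lies between Cyp2b10 and Cyp2b13, had 0 counts in Sham_Nx, 2 in Sham_IH, 32.4 in ORX_Nx and 48.1 in ORX_IH. Cyp2b26-ps, between Cyp2b13 and Cyp2b9, had 0 counts in every sham liver, 24.6 in ORX_Nx and 12.9 in ORX_IH. Neither pseudogene passed the filter on low counts, and whether their counts come from reads of the full-length genes was not tested. In the authors' deposited table, whose test asks for any difference among the groups, the q-values were 6.77e-05 for Cyp2b9, 2.09e-05 for Cyp2b13, 0.0834 for Cyp2b10, 2.83e-04 for Cyp2b27-ps and 0.00829 for Cyp2b26-ps.

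Genes with the most similar profile over all 19 livers were looked up by Pearson's r of log2 CPM, as a description only, since all these genes share the same libraries and the split by operation. For Cyp2b9 they were Slc22a27 (0.96), Gm14496 (0.95), Olfr586 (0.95), Cyp3a44 (0.94) and Slc22a26 (0.94). For Cyp2b13 they were Slc22a26 (0.98), Atp23 (0.97), Gm29920 (0.97), Gm14496 (0.97) and Sult3a1 (0.96). Slc22a26 and Slc22a27 encode organic anion transporters, Sult3a1 a sulfotransferase and Cyp3a44 another P450. Slc22a26 rose by 7.66 ± 0.40 in normoxia and 7.39 ± 0.37 under intermittent hypoxia after orchiectomy (edgeR adjusted p = 1.74e-09 and 8.82e-10). Gm29920, the pseudogene that lies between Cyp2b13 and Cyp2b9, had 0 counts in every sham liver and 0.598 ± 0.597 CPM in ORX_Nx and 0.555 ± 0.168 in ORX_IH (SD, n = 5 each), at least 9.83-fold and 5.15-fold higher than the floor of 3 counts per sham library. For Cyp2b10 the nearest were Olfr1162 (0.87), Akr1b7 (0.83), Cyp2c39 (0.83), Nutf2 (0.82) and Pus7l (0.82). Akr1b7, an aldo-keto reductase, is a known CAR target, while Cyp2c39 is on the list of female-biased P450 genes used here. Cyp2c39 was called higher after orchiectomy in normoxia (1.43 ± 0.32, edgeR adjusted p = 0.00761) and under intermittent hypoxia (2.07 ± 0.30, adjusted p = 5.06e-04). Olfr1162 and Akr1b7 were low, with group means of 0.185 to 0.632 CPM and 0.228 to 1.16 CPM.

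The receptors and helper proteins of drug induction were called about as often as genes in general. Of 18 such genes, edgeR called 2 higher and 1 lower in ORX_Nx against Sham_Nx, where 7.88% of all genes were higher and 6.46% lower: the coactivator Ppargc1a (0.82 ± 0.17, adjusted p = 0.00544), the co-chaperone Dnajc7 (0.17 ± 0.05, adjusted p = 0.0205) and the receptor Egfr, whose signalling restrains CAR (-1.22 ± 0.31, adjusted p = 0.0157). Without the muscle-high libraries the Ppargc1a call remained and the other 2 were lost. The median log2 fold change of the list was 0.06, against 0.01 for all genes. CAR itself (Nr1i3) averaged 210 CPM in Sham_Nx and 287 CPM in ORX_Nx (edgeR adjusted p = 0.269), 222 in Sham_IH and 238 in ORX_IH (adjusted p = 0.876). PXR (Nr1i2) lay between 41.2 and 46.5 CPM and the reductase Por between 297 and 353 CPM in the 4 group means, and neither was called in either comparison. Between ORX_IH and Sham_IH edgeR, DESeq2 and limma-voom called 0 of the 18, with 2 at an unadjusted edgeR p under 0.05. Among all 16164 genes edgeR called 1.31% higher and 1.57% lower there, and 2783 had an unadjusted p under 0.05. DESeq2 called 457 of 16120 genes higher and 410 lower.

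Some other known CAR targets were called, mostly higher, after orchiectomy in normoxia. Of 24, edgeR called 8 higher and 1 lower in ORX_Nx against Sham_Nx, where 7.88% of all genes were higher and 6.46% lower. Their median was 0.21, against 0.01 for all genes. The highest ranked were the transporter Abcc4 (1.19 ± 0.23), Cyp2c37 (1.46 ± 0.35), the bilirubin transferase Ugt1a1 (0.59 ± 0.17), Cyp2c55 (1.17 ± 0.35) and Akr1b7 (1.91 ± 0.59). The epoxide hydrolase Ephx1 was lower (-0.50 ± 0.13). Without the 4 muscle-high libraries, which takes 2 of the 4 Sham_Nx livers, 0 were called higher and 1 lower. With limma-voom 3 were higher and 1 lower, and with DESeq2 9 and 1. In ORX_IH against Sham_IH, where Cyp2b10 was called, edgeR called 1.31% of all genes higher and 1.57% lower. There 1 CAR target was higher, the transporter Abcc3 (0.37 ± 0.09, adjusted p = 0.0254), and 1 was lower, Ephx1 (-0.52 ± 0.12, adjusted p = 0.0227). Neither call held without the muscle-high or without the pancreas-high libraries. Under intermittent hypoxia against normoxia edgeR and limma-voom called 0 of the 24 in sham and in orchiectomized mice. In edgeR 4 and 5 of the 24 had an unadjusted p under 0.05, against 2125 and 2758 of all 16164 genes. DESeq2 called 0 of the 24 in sham mice and 3 lower in orchiectomized mice. Among 16120 genes DESeq2 called 312 higher and 377 lower in orchiectomized mice. In sham mice it called 207 lower, with 42.8% of its calls higher.

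Among 21 genes of androgen, growth hormone and prolactin signalling and of the factors behind sex-biased P450 expression, 4 were called higher and 2 lower in ORX_Nx against Sham_Nx, against 7.88% and 6.46% of all genes. The prolactin receptor Prlr, a female-predominant liver gene, rose by 1.01 ± 0.14 (edgeR adjusted p = 2.34e-04), Cux2 by 1.52 ± 0.34 (adjusted p = 0.00840), Tox by 0.85 ± 0.25 and Stat5b by 0.43 ± 0.10. Srd5a1, a steroid reductase, fell by 1.75 ± 0.22. Without the muscle-high libraries 1 higher and 1 lower call remained, those of Prlr (0.91) and Srd5a1 (-1.73). In ORX_IH against Sham_IH, Prlr (0.74 ± 0.13), Cux2 (1.62 ± 0.31) and Tox (1.07 ± 0.24) were higher, and Srd5a1 (-0.89 ± 0.21) and the repressor Bcl6 (-2.96 ± 0.56, adjusted p = 0.00593) were lower, where 1.31% of all genes were called higher and 1.57% lower. None of these 5 calls held without the muscle-high libraries, and without the pancreas-high ones those of Prlr (0.82) and Bcl6 (-3.10) did. Bcl6 averaged 43.8 CPM in Sham_Nx, 72.5 in Sham_IH, 34.6 in ORX_Nx and 9.31 in ORX_IH, lowest in the group with the most Cyp2b10. Cyp2b9 and Cyp2b13 were not higher in ORX_IH (541 and 52.7 CPM) than in ORX_Nx (556 and 85.4 CPM). Bcl6 was highest in Sham_IH, where Cyp2b9 averaged 12.3 CPM against 1.42 CPM in Sham_Nx. A link of Bcl6 with any of the 3 genes was not tested. The median of the list was -0.04 in normoxia and 0.16 under intermittent hypoxia, against 0.01 and -0.00 for all genes.

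Most female-biased P450 genes outside the Cyp2b subfamily were higher after orchiectomy too. Of 12 tested, 9 were called higher and 0 lower in ORX_Nx against Sham_Nx, and 8 and 0 in ORX_IH against Sham_IH, with medians of 2.69 and 2.56. Of all genes, edgeR called 7.88% higher and 6.46% lower in normoxia, and 1.31% and 1.57% under intermittent hypoxia. The steroid hydroxylase Cyp2a4 rose by 7.48 ± 0.62 and 7.04 ± 0.57 (edgeR adjusted p = 1.28e-06 and 1.60e-06), Cyp3a44 by 5.75 ± 0.89 and 4.72 ± 0.68, Cyp2a22 by 4.76 ± 0.62 and 3.74 ± 0.54, and Cyp2c40 by 3.09 ± 0.48 and 3.04 ± 0.44. Without the muscle-high libraries 6 and 6 of the list were called higher. All 10 male-biased genes were called lower in either comparison, with medians of -4.95 and -4.27. The list of sex-biased genes was chosen with results of these livers known, so its direction is no independent evidence.

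Calls were mixed among the other P450 genes of the Cyp2 gene cluster on chromosome 7. Of 9 other cluster genes tested, edgeR called 4 higher and 1 lower in ORX_Nx against Sham_Nx. Of all genes, 7.88% were called higher and 6.46% lower there. The 4 were Cyp2a4, Cyp2a22, Cyp2g1 (2.29 ± 0.54) and Cyp2a5 (0.90 ± 0.30, adjusted p = 0.0495), and the 1 was Cyp2f2 (-0.88 ± 0.19, adjusted p = 0.00636). The Cyp2f2 and Cyp2a5 calls were lost without the muscle-high libraries (-0.89, adjusted p = 0.0690, and 0.86, adjusted p = 0.202). Cyp2a12 had a log2 difference of 0.00 (edgeR adjusted p = 0.999). In ORX_IH against Sham_IH, 2 were called higher, Cyp2a4 and Cyp2a22, as were 1.31% of all genes.

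**Figure D5:**
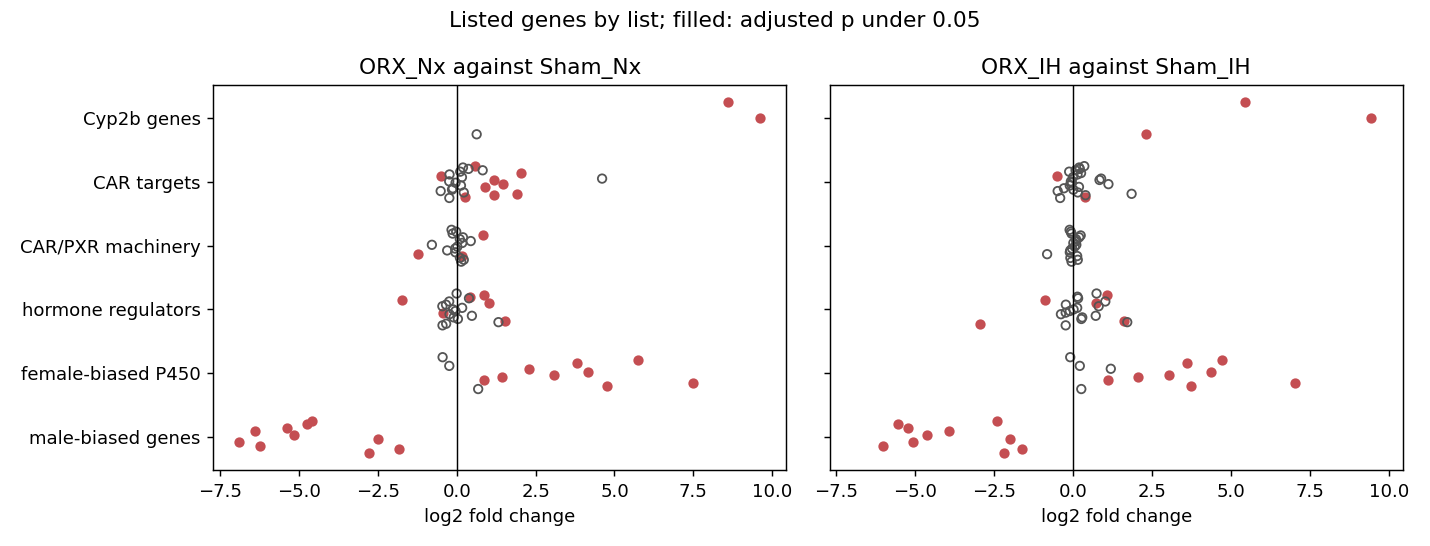
Log2 fold changes of each tested gene (points, by list) in ORX_Nx against Sham_Nx (left) and ORX_IH against Sham_IH (right); filled points have an adjusted p under 0.05. Cyp2b9 and Cyp2b13 lie beyond the highest female-biased P450 gene, Cyp2a4, in normoxia (7.48), while the CAR targets have medians of 0.21 and 0.15.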

How the data were processed

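Poly(A) RNA of mouse livers was sequenced. Per the submitters' processing notes, the authors used bcl2fastq 2.20, fastp 0.23.2, FastQC 0.11.9, MultiQC 1.12 and kallisto 0.46.1 with build GRCm39; how transcripts were summed to genes is not stated there. The deposited values used were estimated counts per gene (27.5% not whole; rounded to whole numbers for the count tests), a deposited log2 expression table (within 0.0785 of log2 RPKM in the median), and the authors' F-statistic score, p-value and q-value. RPKM used the deposited mean gene length.

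Counts were tested with edgeR 4.0.16 (TMM scaling, filterByExpr with a minimum count of 10, quasi-likelihood test, all 19 libraries in one fit, Benjamini-Hochberg over 16164 genes, threshold 0.05). Exact permutation tests and correlations used scipy 1.17.1, on log2 CPM to which a prior count of 1 was added. The fit was tested on simulated data. Alternatives were other scalings and filters, DESeq2 1.42.0, limma 3.58.1 (voom, and trend on the log2 table), a replicate block, summed Cyp2b counts, and left-out libraries. Intervals and floors cover counting error and the spread between these livers only. Named genes were the 3 Cyp2b genes, other Cyp2b rows, called members of 5 lists (at most 6 per list and comparison, in order of adjusted p) with 7 regulators always, and the 5 genes most correlated with each; Cyp2a12 and the male-biased examples were chosen after their values were seen, and a called list member is not reported here. The genes and lists were chosen with earlier results of these data known. Promoters come from RefSeq on GRCm38.p6, for which all 3 genes matched; the counts use GRCm39, so no other coordinates are given.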

Additional observations from a re-analysis of the deposited data

Results flagged for a closer look

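Cyp2b13 in Sham_Nx 4 stood apart from the other 3 Sham_Nx livers: its 22 counts make 0.355 CPM, and the gap to the next liver was 0.943 of the range of the group, above Dixon's 95% limit for 4 samples. It was 1 of 12 combinations of gene and group examined. The limit flags about 1 in 20 by chance for normally distributed values, and its rate for counts this near 0 was not tested. The same liver had the highest Cyp2b9 (2.76 CPM) and Cyp2b10 (10.5 CPM) of Sham_Nx.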

How the results depend on the processing

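Of 18 results for the 3 genes (6 contrasts each), 11 stayed on the same side of the threshold in every alternative, and 608 of 626 recomputed values did. The Cyp2b9 calls after orchiectomy held in all. With limma-voom, Cyp2b13 was not called in ORX_Nx (10.24), ORX_IH against Sham_IH (10.04) or ORX_IH against Sham_Nx (10.27; adjusted p = 0.189). DESeq2 called Cyp2b9 in Sham_IH against Sham_Nx (3.10). Cyp2b10 in ORX_IH against Sham_IH lost its call with the replicate block (2.28, adjusted p = 0.0622), with libraries 1 to 16 (2.34) and without the pancreas-high libraries (2.26); against Sham_Nx it did so with the replicate block (2.03), libraries 1 to 16 (2.01), and without the muscle-high (1.58) or pancreas-high libraries (1.94). Leaving out single libraries gave 2.03 to 2.71 and 1.63 to 2.43 for these. Smaller samples leave fewer degrees of freedom; otherwise the cause was not tested. Summing the 3 genes gave 6.46 in ORX_Nx, which replaces the Cyp2b10 value there. Deviations of same-numbered mice from their group means had r from -0.20 to 0.40, highest for mice 5 of Sham_IH and Sham_Nx. Such values cannot show whether the numbers stand for pairs or batches. The fit with the replicate block changed no other call of the 3 genes. It brought the genes called between ORX_IH and ORX_Nx from 12 to 0. Without scaling factors the median of all genes moved to 0.14 and 0.13 in the orchiectomy comparisons, and the share of calls that were higher from 54.9% to 86.4% (ORX_Nx), from 45.4% to 85.5% (ORX_IH against Sham_IH) and from 40.9% to 76.4% (against Sham_Nx). In ORX_IH against Sham_IH, 211 genes were called higher and 254 lower, against 59 and 48 without the muscle-high libraries, 77 and 81 without the pancreas-high ones, 104 to 140 and 120 to 211 without any one Sham_IH library or ORX_IH 1 or 2, and 350 and 354 without ORX_Nx 5. In ORX_IH against Sham_Nx the 570 and 824 calls became 54 and 78 without the muscle-high libraries, 216 and 288 without the pancreas-high ones, and 310 to 416 and 491 to 546 without Sham_Nx 2 or 5 or ORX_IH 2. DESeq2 called 207 genes lower in Sham_IH against Sham_Nx (edgeR 33), with 42.8% of its calls higher (edgeR 32.7%), and, higher and lower, 312 and 377 in ORX_IH against ORX_Nx (3 and 9), 457 and 410 in ORX_IH against Sham_IH (211 and 254), and 55 and 8 in the interaction (0 and 0). Of 60 calls of listed genes, 19 held throughout, 38 ended without the muscle-high libraries, 22 without some single library, and 0 reversed in any of the edgeR, DESeq2 or limma alternatives. Depth limits Cyp2b13, Cyp2b19, Cyp2b23 and the pseudogenes in sham livers.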
